A study of Mus musculus with 8 samples.

Results

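The 8 carbonic anhydrase genes Car1, Car2, Car3, Car4, Car7, Car8, Car12 and Car13 were followed by name through single-cell RNA counts of mouse colon epithelium and stroma. They were 8 of the 32285 genes listed in the deposited matrices, and each matched exactly 1 listed gene in all 8 libraries. The libraries came from C57BL/6 mice with no engineered allele named in the labels, and the labels give no age. The study's methods describe all mice used as male and give a common age range in weeks. Tissue epithelium (2 libraries) was taken from colon crypts, and organoid epithelium (2 libraries) was grown in Matrigel without stroma in medium containing Wnt surrogate, CHIR-99021, R-spondin 1 and noggin. Assembloids, made by combining colon organoids with primary colon stromal cells and grown without those 4 factors, gave assembloid epithelium (2 libraries) and, as EpCAM-negative cells, assembloid stroma (2 libraries). The stromal cells had been cultured before assembly. Assembloids were grown on an orbital shaker. They were dissociated with Liberase and DNase and then TrypLE, and organoids with TrypLE alone. Tissue crypts were released with EDTA and DTT before TrypLE. These steps follow the groups, and their part in the differences was not tested. The study's methods call the 2 libraries of a group biological replicates and trace the stroma to 2 mice, but the labels do not tie libraries to animals, and nothing says that same-numbered libraries share one.

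Carbonic anhydrases interconvert carbon dioxide and water with bicarbonate and protons. In the colon they supply surface colonocytes with the ions that are exchanged for sodium and chloride during salt absorption. The family differs in where its enzymes sit: Car1, Car2, Car3, Car7 and Car13 are cytosolic, Car4 is anchored to the outer face of the apical membrane by a lipid, Car12 spans the membrane with its catalytic part outside, and Car8 lacks catalytic activity. Car2 is among the fastest enzymes known, Car3 is best known from muscle and fat, and Car1 is abundant in red blood cells as well as in the large intestine.

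In the GENCODE M21 annotation of GRCm38, 4 members stood next to each other on chromosome 3 within 259 kb: Car13 (chr3:14641727-14663002, plus strand), Car1 (chr3:14766216-14808368, minus strand), Car3 (chr3:14863512-14872523, plus strand) and Car2 (chr3:14886273-14900770, plus strand). The only other 2 genes annotated in that span were pseudogenes, neither of which was counted in the files. The remaining members lay apart, Car8 at chr4:8143362-8239041 (minus strand), Car7 at chr8:104534689-104550343 (plus strand), Car12 at chr9:66713686-66766845 (plus strand) and Car4 at chr11:84957786-84966044 (plus strand). Of the 28 pairs of members, 2 shared any stretch of 25 bases in their annotated transcripts (Car2 with Car13, and Car3 with Car12).

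RefSeq promoter windows (GRCm38.p6, 250 bases before to 50 bases after a start) were at hand for 3 of the 8 members. Those of the membrane enzymes Car4 and Car12 are shown. Car4 differed most between tissue and culture, while Car12 did not pass the main test there in the sums over whole libraries. Capitals mark matches to the motifs searched on both strands, which were the TATA box TATAAA, the CDX motif TTTATNG, the HNF4 motif CAAAGTNCA, the AP-1 motif TGANTCA and the GC box GGGCGG.
Car4 (chr11:84957504-84957803, plus strand): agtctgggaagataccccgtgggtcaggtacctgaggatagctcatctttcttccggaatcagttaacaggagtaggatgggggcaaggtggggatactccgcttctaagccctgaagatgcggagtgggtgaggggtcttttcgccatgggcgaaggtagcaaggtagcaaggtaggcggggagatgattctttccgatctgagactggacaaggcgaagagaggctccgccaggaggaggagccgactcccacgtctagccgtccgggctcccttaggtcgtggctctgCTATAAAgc
Car12 (chr9:66713436-66713735, plus strand): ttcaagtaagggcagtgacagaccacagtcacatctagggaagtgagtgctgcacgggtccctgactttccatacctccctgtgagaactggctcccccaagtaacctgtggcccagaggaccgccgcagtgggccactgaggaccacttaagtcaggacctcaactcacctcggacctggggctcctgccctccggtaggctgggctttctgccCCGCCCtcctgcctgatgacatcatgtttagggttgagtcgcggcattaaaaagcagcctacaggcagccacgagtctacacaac
In Car4 the capitals mark TATAAA on the plus strand from base 42 after the RefSeq start and TTTATNG on the minus strand from base 41, which overlap each other. In Car12 they mark GGGCGG on the minus strand from position -35. Of 32851 windows of this length, 13.6% held TATAAA, 10.9% TTTATNG, 1.41% CAAAGTNCA, 7.81% TGANTCA and 35.7% GGGCGG, so the matches are common ones and only describe these letters.

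Barcodes entered the analysis when 500 genes or more were detected and mitochondrial UMIs made up 10% or less. Marker genes other than carbonic anhydrases assigned them to classes, and cells of the wrong lineage were left out of each library sum. Between 4306 and 27964 cells and between 36945869 and 187583982 UMIs per library entered the sums, with a median of 3353 to 35219 UMIs per cell. The epithelial list summed to between 5818 and 12072 CPM (UMIs scaled to the same total in every library) in the 6 epithelial libraries and to 33.5 and 10.2 CPM in the stromal ones, where the fibroblast list summed to 7549 and 10754 CPM. In the assembloid epithelial libraries, 1446 and 721 passing cells were left out by this step. Any 2 libraries shared 13 to 141 barcodes. The limits on genes and mitochondrial UMIs kept 38.7% and 25.4% of tissue barcodes. They kept 89.3% and 55.1% in assembloid epithelium, 81.4% and 55.3% in organoids and 94.8% and 96.1% in stroma. With a mitochondrial limit of 20%, tissue cycling cells went from 107 and 51 to 349 and 274. Assembloid ones went from 1253 and 566 to 1291 and 650, and organoid ones from 1498 and 1151 to 1579 and 1963. A lower sum can come from fewer expressing cells or from less RNA in each, and in sums over whole libraries these cannot be told apart.

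**Figure D1:**
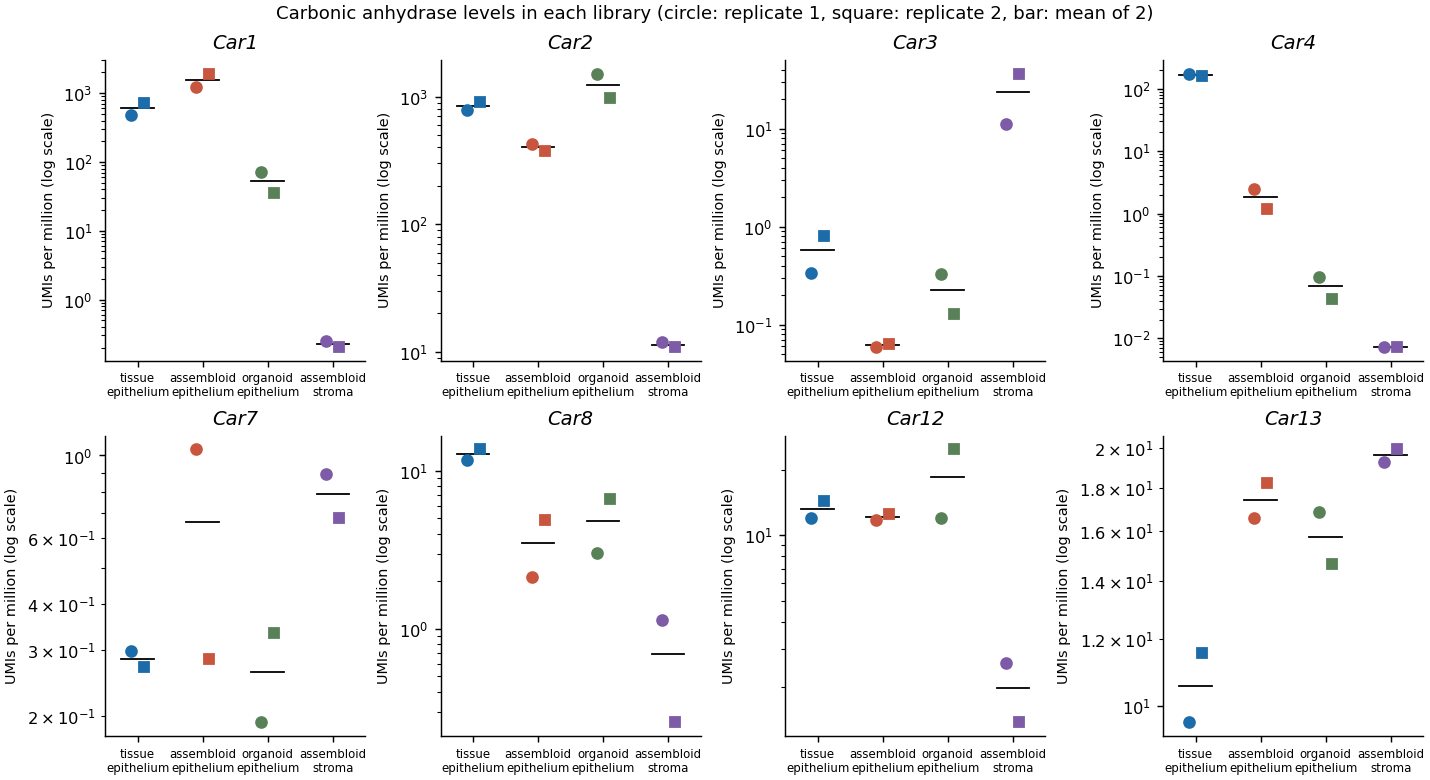
Level of each carbonic anhydrase in each library, in CPM on a log axis, by group (circle: replicate 1, square: replicate 2, bar: mean of 2). Car1 was highest in assembloid epithelium (1226 and 1917 CPM), Car4 in tissue (173 and 160 CPM) and Car2 in organoids (1513 and 978 CPM), while Car3 was highest in stroma (11.03 and 36.2 CPM).

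The comparison of assembloid with tissue epithelium asks how the culture differs from the colon it models. Of the 8 members, 5 passed edgeR's quasi-likelihood test with Benjamini-Hochberg adjustment, against 50.5% of the 19365 genes tested. Car1 and Car13 were higher in assembloids, as were 27.2% of all genes, and Car3, Car4 and Car8 were lower, as were 23.3%. The members' median log2 difference was -0.23, beside 0.03 over all genes. In organoids against tissue, 4 members passed (47.6% of all genes, 24.5% higher and 23.1% lower), with Car13 higher and Car1, Car4 and Car8 lower, and a median of -0.45 beside 0.06. Assembloids and organoids differ in stroma and medium, and also in the shaker culture and dissociation given above. Between them 3 members passed (54.4% of all genes, 29.5% higher and 25% lower), with Car1 and Car4 higher in assembloids and Car2 lower. These shares of members stand near those of all genes, and the 3 contrasts share their libraries pairwise.

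**Figure D2:**
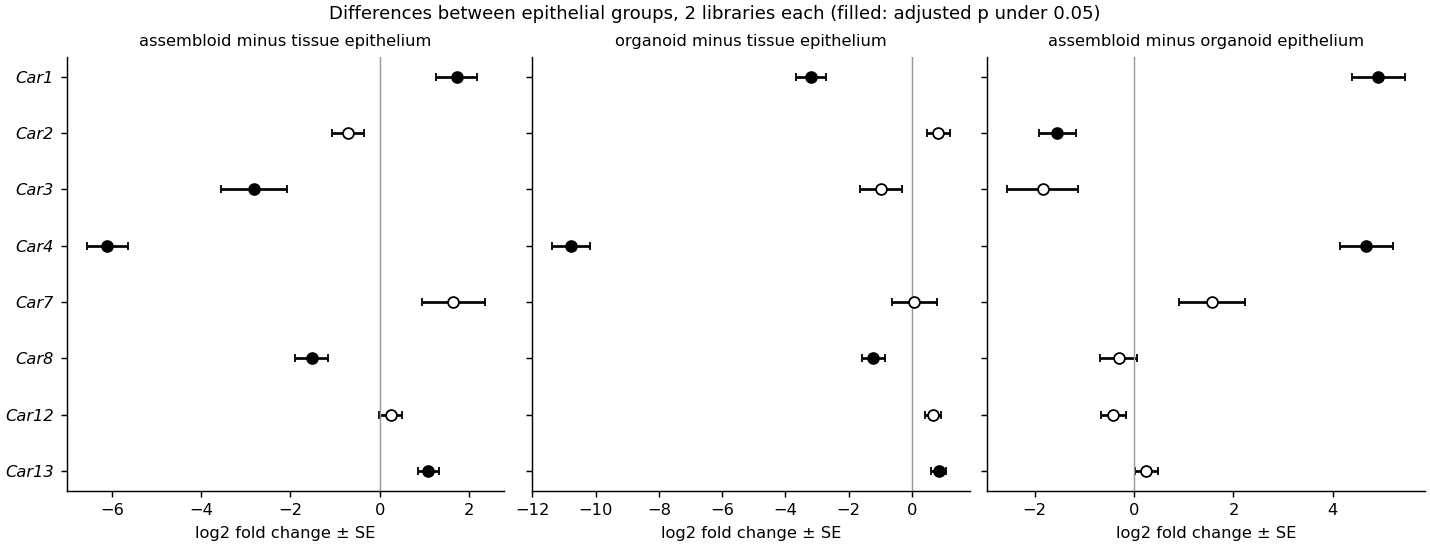
Log2 fold change of each member between the epithelial groups, with bars of 1 standard error from a fit over 6 libraries, and filled symbols where the edgeR adjusted p was under 0.05. Car4 has the most negative value in both contrasts with tissue (-6.11 and -10.78), and Car1 lies on opposite sides of 0 in them (1.73 and -3.19).

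Car1, the cytosolic enzyme abundant in the large intestine, stood at 1226 and 1917 CPM in assembloid epithelium, 478 and 727 CPM in tissue, 71.9 and 35.1 CPM in organoids and 0.251 and 0.205 CPM in stroma. The 4 groups did not overlap. Assembloids exceeded tissue by 1.73 (SE 0.46) on the log2 scale (edgeR adjusted p = 0.0131), and organoids differed from tissue by -3.19 (SE 0.49, edgeR adjusted p = 8.6e-04). Assembloids exceeded organoids by 4.92 (SE 0.53, edgeR adjusted p = 1.7e-04). Without tissue library 1 the excess of assembloids over tissue was 1.44 and no longer passed (edgeR adjusted p = 0.121). Without organoid library 1 the difference of organoids from tissue was -4.04 and that of assembloids from organoids 5.77. Both still passed.

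The share of Car1 UMIs in colonocyte-gated cells was lower in assembloids than in tissue, beside fewer gated cells in assembloids. Colonocyte-gated cells, those with at least 100 UMIs of 13 colonocyte genes per 10000, held 85.5% and 80.1% of the Car1 UMIs of the tissue libraries but 10.3% and 22.01% in assembloids. Deep epithelial cells that passed no subclass gate held 62.6% and 69.9% in assembloids. Within colonocyte-gated cells, the Car1 level was 8805 and 11916 CPM in assembloids (263 and 232 cells) against 2008 and 2601 CPM in tissue (474 and 472 cells). The groups did not overlap, and the difference was 2.76 (SE 0.24, edgeR adjusted p = 8.6e-06). The TMM scaling of the fit moves values within this class. With plain library sizes the difference was 2.17 (adjusted p = 5.0e-05), the median over all genes -0.65 in place of -0.06, and the higher share of called genes 21.9% in place of 51.4%. Organoids had 2 colonocyte-gated cells in 1 library and none in the other, so they could not be compared there.

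The share of cells with a Car1 UMI ordered the groups alike. With each cell thinned to 2000 UMIs, it was 97.7% and 95.7% of colonocyte-gated cells in assembloids (unthinned 99.6% and 100%) and 71.7% and 78.2% in tissue (unthinned 93.5% and 96.6%). Fibroblast-gated cells, which should lack Car1, had a Car1 UMI in 21.2% and 19.3% of cells within the assembloid epithelial libraries, but in 0.0313% and 0.04999% within the stromal libraries. The level in these cells (513 and 401 in the epithelial libraries) was 114 and 101 CPM in the former and 0.276 and 0.208 CPM in the latter. Macrophage-gated cells of the assembloid epithelial libraries stood at 110 and 108 CPM, so low Car1 values in these 2 libraries lie near a background shared by cells that should lack it. Median depth was 8613 and 16406 UMIs in the assembloid colonocyte-gated cells and 6445 and 11017 in the fibroblast-gated ones. Over all cells used, the thinned shares were 66.8% and 52.6% in assembloids, 23.3% and 36.6% in tissue and 9.55% and 4.75% in organoids. Thinning left out the shallower cells, 6777 and 785 of them in assembloids, 2249 and 1539 in tissue and 110 and 3419 in organoids.

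Among goblet-gated cells, mucus producers, Car1 stood at 220 and 429 CPM in assembloids, 34.7 and 66.2 CPM in tissue and 1.71 and 0 CPM in organoids. Assembloids exceeded tissue by 3.19 (SE 0.34, edgeR adjusted p = 3.5e-05). The Car1 background of the assembloid epithelial libraries, given above for fibroblast- and macrophage-gated cells, itself lay above both tissue goblet values. Its part in the assembloid goblet and cycling values was not tested. Organoid goblet-gated cells held a single Car1 UMI. The tissue cells with the fewest colonocyte markers (27.1 and 68.3 CPM) could include goblet-gated cells, so they give no separate background. How much of the tissue goblet level was free RNA was not tested. In cycling cells Car1 was at 320 and 597 CPM in assembloids, 28.1 and 44.7 CPM in tissue and 63.7 and 21.1 CPM in organoids. Cycling cells numbered 1253 and 566 in assembloids, 107 and 51 in tissue and 1498 and 1151 in organoids. Assembloids exceeded tissue by 4.18 (SE 0.56, edgeR adjusted p = 1.5e-04) and organoids by 3.42 (SE 0.51, edgeR adjusted p = 2.4e-04) there, the latter moving to 4.63 without organoid library 1 and 2.78 without organoid library 2. Organoids and tissue overlapped in cycling cells (0.76, edgeR adjusted p = 0.305). With 1 library left out the value ranged from -0.45 to 1.45, the latter without organoid library 2.

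Car1 rose with the colonocyte markers in both tissue and assembloids, except from below 15 to 15 to 50 list UMIs in tissue library 2 (68.3 and 68.2 CPM). In deep epithelial cells of the tissue, it went from 27.1 and 68.3 CPM below 15 colonocyte-list UMIs per 10000 to 272 and 409 CPM at 50 to 100 and to 2961 and 3745 CPM at 200 or more. Assembloid cells stood at 359 and 306 CPM, 5735 and 7203 CPM, and 10229 and 14495 CPM in the same bins, above both tissue libraries in every bin. The last assembloid bin held 23 and 38 cells, against 259 and 241 in tissue. Organoid cells with 15 to 50 list UMIs per 10000 (115 and 71 cells) already stood at 508 and 543 CPM of Car1, above the 38.0 and 68.2 CPM of tissue cells in that bin. These bins are descriptions, with no test.

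**Figure D3:**
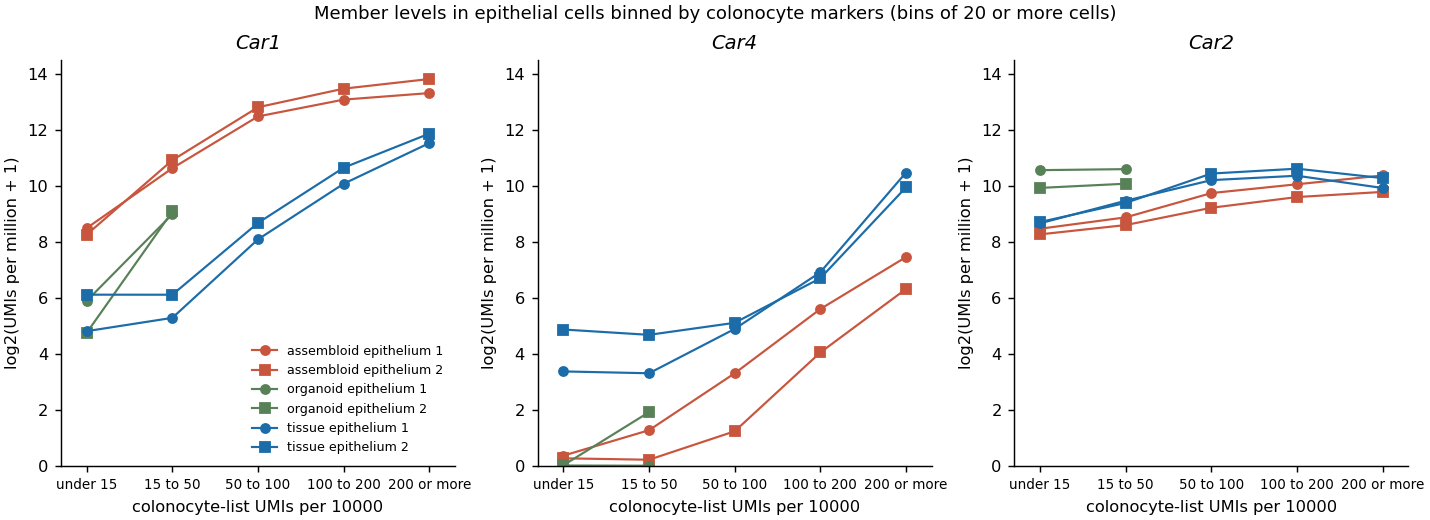
Levels of Car1, Car4 and Car2, as log2(CPM + 1), in deep epithelial cells binned by their colonocyte-marker UMIs per 10000, with 1 line per library and bins of 20 or more cells. Assembloid lines lie above tissue lines in every bin for Car1 (10229 and 14495 against 2961 and 3745 CPM in the last bin) and below them for Car4 (175 and 78.7 against 1425 and 989 CPM), while Car2 spans a narrow range.

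Car2, the fast cytosolic enzyme, stood at 1513 and 978 CPM in organoids, 782 and 914 CPM in tissue, 425 and 376 CPM in assembloid epithelium and 11.9 and 10.9 CPM in stroma. The groups kept this order without overlap, but neighbouring epithelial groups did not pass the test. Organoids were above tissue by 0.84 (SE 0.36, edgeR adjusted p = 0.0865) and assembloids differed from tissue by -0.71 (SE 0.36, edgeR adjusted p = 0.133). The ends of the order did differ, assembloids against organoids by -1.54 (SE 0.37, edgeR adjusted p = 0.00719). The assembloid to tissue difference passed when organoid library 1 or 2 was left out (-0.72 with adjusted p = 0.0215 and -0.71 with adjusted p = 0.0279), and the organoid to tissue difference passed without organoid library 2 (1.26, adjusted p = 0.00770). With plain library sizes the assembloid to tissue difference was -1.08 (edgeR adjusted p = 0.00429), and the organoid to tissue difference passed with DESeq2 (0.80, adjusted p = 0.0323), with no filter on low counts (0.90, adjusted p = 0.0318) and with a mitochondrial limit of 5% (0.96, adjusted p = 0.0135).

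Car2 varied less with cell class than Car1. Its colonocyte-gated level was 1085 and 799 CPM in assembloids and 1155 and 1425 CPM in tissue, both assembloid values below both tissue values. The fit gave 0.17 (SE 0.24, edgeR adjusted p = 0.587), on the other side of 0 from these levels after TMM scaling, and -0.45 (adjusted p = 0.103) with plain library sizes. It was -0.19 without assembloid library 1. Thinned shares of colonocyte-gated cells with a Car2 UMI were 74.1% and 64.2% in assembloids and 79.7% and 89.2% in tissue, beside 8% and 6.27% of the fibroblast-gated cells in the assembloid epithelial libraries. In cycling cells Car2 reached 1504 and 939 CPM in organoids, above 397 and 419 CPM in assembloids and 519 and 674 CPM in tissue. Organoids exceeded tissue there by 1.48 (SE 0.36, edgeR adjusted p = 0.00838), a call lost without tissue library 1 (1.37, adjusted p = 0.176) or 2 (1.69, adjusted p = 0.0851). Assembloid cycling cells differed from organoid ones by -1.53 (SE 0.36, edgeR adjusted p = 0.00499). Stem-gated cells, which carry Wnt target genes such as Lgr5, held 1105 and 905 CPM of Car2 in organoids and 375 and 395 CPM in tissue. Enteroendocrine-gated cells were low in Car2, at 143 CPM in assembloid library 2 and 152 and 275 CPM in tissue.

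In goblet-gated cells Car2 stood at 596 and 492 CPM in organoids, 349 and 413 CPM in tissue and 183 and 146 CPM in assembloids. Assembloids were lower than tissue (-0.69, SE 0.22, edgeR adjusted p = 0.0228) and than organoids (-1.13, SE 0.23, edgeR adjusted p = 0.00519; -1.73 with plain library sizes). The difference from tissue did not pass without tissue library 1 (-0.81, adjusted p = 0.0951), tissue library 2 (-0.57, adjusted p = 0.218) or assembloid library 2 (-0.48, adjusted p = 0.0987), and that from organoids did not pass without organoid library 1 (-0.95, adjusted p = 0.0675). Organoid goblet-gated cells numbered 22 and 23. Fibroblast-gated cells of the assembloid epithelial libraries held 42.1 and 26.5 CPM of Car2, against 9.81 and 10.0 CPM in the stromal libraries.

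Car13, a cytosolic enzyme of wide tissue range, varied within a narrow range. It stood at 19.3 and 19.9 CPM in stroma, 16.6 and 18.2 CPM in assembloid epithelium, 16.8 and 14.6 CPM in organoids and 9.58 and 11.5 CPM in tissue. Tissue lay below every other group. Assembloids exceeded tissue by 1.09 (SE 0.23, edgeR adjusted p = 0.00489) and organoids exceeded it by 0.84 (SE 0.23, edgeR adjusted p = 0.0161). The first call was lost without tissue library 1 (0.94, adjusted p = 0.0684), and the second without organoid library 1 (0.53, adjusted p = 0.0831), tissue library 1 (0.71, adjusted p = 0.153) or tissue library 2 (0.99, adjusted p = 0.0571). The second was also lost with plain library sizes (0.58, adjusted p = 0.0740), a mitochondrial limit of 20% (0.68, adjusted p = 0.0767) and every barcode (0.69, adjusted p = 0.0788). Assembloids and organoids differed by 0.25 (SE 0.23, edgeR adjusted p = 0.379), and stroma and assembloid epithelium by 0.01 (SE 0.13, edgeR adjusted p = 0.934).

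Within classes the Car13 differences depended on the scaling. Colonocyte-gated cells held 20.5 and 22.4 CPM in assembloids and 14.2 and 18.1 CPM in tissue (1.00, SE 0.22, edgeR adjusted p = 0.00303). That call was lost with plain library sizes (0.41, adjusted p = 0.142) and with the gate limit doubled (0.83, adjusted p = 0.221). Goblet-gated cells held 10.3 and 7.57 CPM in assembloids and 2.36 and 3.98 CPM in tissue (1.98, SE 0.44, edgeR adjusted p = 0.00358). The goblet value was 1.47 with plain library sizes, where it passed, and did not pass without tissue library 1 (1.66, adjusted p = 0.0925). Cycling cells held 18.5 and 21.4 CPM in assembloids and 10.2 and 16.8 CPM in tissue (1.15, SE 0.35, edgeR adjusted p = 0.0235). That call was lost with plain library sizes (0.64, adjusted p = 0.201) and without tissue library 1 (0.82, adjusted p = 0.273). Basal squamous cells of the stromal libraries, gated by Krt5, Krt14 and related keratin-layer genes, had the highest Car13 of any class, 71.1 and 77.3 CPM (812 and 38 cells). Fibroblast-gated cells held 18.4 and 19.1 CPM in the stromal libraries and 33.2 and 30.9 CPM in the assembloid epithelial ones.

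Car3, the cytosolic enzyme of muscle and fat, stood at 11.03 and 36.2 CPM in stroma and below 1 CPM in every epithelial library. Tissue had 0.341 and 0.812 CPM (16 and 30 UMIs), organoids 0.325 and 0.129 CPM (61 and 12 UMIs) and assembloid epithelium 0.0594 and 0.0642 CPM (10 and 7 UMIs). Assembloid epithelium was lower than tissue (-2.82 on the log2 scale, SE 0.74, edgeR adjusted p = 0.0126), a call that was lost without tissue library 2 (-2.08, adjusted p = 0.119). Organoids lay between these groups without overlap, at -0.98 from tissue (edgeR adjusted p = 0.257), a value that ranged from -2.08 without organoid library 1 to -0.23 without tissue library 2. Assembloids were at -1.84 from organoids (edgeR adjusted p = 0.0569), at -2.44 without organoid library 2 (adjusted p = 0.0378) and at -0.75 without organoid library 1 (adjusted p = 0.494). This contrast also passed with plain library sizes, with no filter on low counts, with mitochondrial limits of 5% and 20%, with every barcode and with other classes kept, at -1.87 to -1.99 (adjusted p from 0.0259 to 0.0485). Fibroblast-gated cells held 78.0% and 96.5% of the stromal libraries' Car3 UMIs. Their level, 11.7 and 40.05 CPM, lay close to the 11.03 and 36.2 CPM of the whole stromal sums. The list of adipocyte and skeletal muscle genes summed to 0.362 and 1.17 CPM in the stromal sums, with 2 of its 6 genes at 0 in each. It summed to between 12.1 and 86.9 CPM in the epithelial sums, where Car3 was lower and 1 to 4 of the genes were at 0. No passing cell of any library held 3 of these genes.

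Car7, a cytosolic enzyme best known from neurons, was near the limit of detection throughout. It stood at 1.04 and 0.284 CPM in assembloid epithelium, 0.894 and 0.680 CPM in stroma, 0.298 and 0.271 CPM in tissue and 0.192 and 0.333 CPM in organoids. The 3 epithelial groups overlapped, and no contrast passed (assembloids minus tissue 1.65, edgeR adjusted p = 0.0794; assembloids minus organoids 1.57, edgeR adjusted p = 0.0722). Both passed with assembloid library 1 as the only assembloid library, at 2.33 (adjusted p = 0.00355) and 2.25 (adjusted p = 0.00270), and stood at 0.27 (adjusted p = 0.733) and 0.21 (adjusted p = 0.778) with assembloid library 2 as the only one. Both also passed with no filter on low counts (1.68, adjusted p = 0.0260, and 1.54, adjusted p = 0.0276), and the difference from organoids passed with a mitochondrial limit of 5% (1.76, adjusted p = 0.0336) and with other classes kept (1.61, adjusted p = 0.0465). Macrophage-gated cells of the assembloid epithelial libraries held 6.52 and 2.95 CPM, from 6 UMIs in each library. Neuron-gated cells of the stromal libraries (60 and 80 cells) had no Car7 UMI. With so few cells and a level this low, that count does not show that Car7 was absent from them.

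Car4, the enzyme on the outer apical membrane, differed more from tissue than any other member, in assembloids and in organoids alike. It stood at 173 and 160 CPM in tissue (8144 and 5910 UMIs), 2.45 and 1.17 CPM in assembloid epithelium (413 and 128 UMIs), 0.0960 and 0.0430 CPM in organoids (18 and 4 UMIs) and 1 UMI in each stromal library. No 2 groups overlapped. Assembloids differed from tissue by -6.11 (SE 0.46, edgeR adjusted p = 3.0e-05) and organoids by -10.78 (SE 0.60, edgeR adjusted p = 5.9e-06), while assembloids exceeded organoids by 4.67 (SE 0.53, edgeR adjusted p = 2.2e-04). Car4 passed these 3 contrasts under all 16 alternatives run. Leaving out assembloid library 1 gave -6.87 from tissue and 3.91 from organoids, and leaving out organoid library 1 gave -11.81 for organoids against tissue and 5.69 for assembloids against organoids. With at most 5% mitochondrial UMIs the values were -12.60 and 6.65. In organoid library 1, 2 colonocyte-gated cells held 94.4% of the Car4 UMIs.

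Colonocyte-gated cells held 89.5% and 72.1% of the Car4 UMIs in tissue and 32.9% and 70.4% in assembloids, at 762 and 516 CPM and at 56.5 and 24.2 CPM. The difference within this class was -3.40 (SE 0.39, edgeR adjusted p = 4.9e-05; -4.22 without assembloid library 1 and -4.02 with plain library sizes), in the direction opposite to that of Car1 in the same cells. Thinned shares of colonocyte-gated cells with a Car4 UMI were 38.4% and 34.7% in tissue and 7.60% and 3.45% in assembloids (unthinned 62.0%, 67.6%, 14.8% and 12.5%). In fibroblast-gated cells of the assembloid epithelial libraries the thinned share was 0 of 500 and 0.251%. Of the thinned tissue colonocyte-gated cells with a Car4 UMI, 75.8% and 85.4% also had a Car1 UMI, and in assembloids 95% of 20 cells and 100% of 8 cells did.

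Car4 also rose with the colonocyte markers, but not over their lowest bins in tissue and in assembloid library 2. In tissue it stood at 9.35 and 28.2 CPM below 15 list UMIs per 10000 and at 8.88 and 24.6 CPM at 15 to 50, then went from 28.6 and 33.5 CPM at 50 to 100 to 120 and 103 CPM at 100 to 200 and to 1425 and 989 CPM at 200 or more. Assembloids stood at 0.284 and 0.202 CPM and 1.41 and 0.160 CPM in the 2 lowest bins and at 8.87 and 1.35 CPM, 47.5 and 15.5 CPM, and 175 and 78.7 CPM in the others, below tissue in each. Gated cells of the 2 groups were not alike: the median list level was 132 and 136 UMIs per 10000 in assembloids and 212 and 203 in tissue. Cells from 20% below to 25% above the gate limit, which was set after the data had been seen, numbered 275 and 209 in assembloids and 133 and 134 in tissue. The genes of the list also differed within the gate, with Guca2a at 773 and 817 CPM in assembloids against 5560 and 5935 CPM in tissue, Slc26a3 at 131 and 155 against 760 and 636 CPM, and Emp1 at 977 and 963 against 111 and 192 CPM. Their part in the Car1 and Car4 differences was not tested.

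Outside colonocytes, Car4 in tissue was at 13.4 and 23.2 CPM in goblet-gated cells and 10.2 and 24.6 CPM in cycling cells. The tissue cells with the fewest colonocyte markers (9.35 and 28.2 CPM) could include goblet-gated and cycling cells, so they give no separate background. Each tissue library held 1 macrophage-gated cell and no fibroblast-gated cells, so no class that should lack Car4 gave a background level there, and how much of these values was free RNA was not tested. The goblet-gated cells held 1 Car4 UMI in assembloids and none in organoids, and the cycling cells of organoids held 2. Assembloid cycling cells stood at 0.754 and 0.0869 CPM of Car4 (-4.63 from tissue, SE 0.84, edgeR adjusted p = 0.00124, ranging from -7.06 without assembloid library 1 to -3.79 without assembloid library 2). This rests on 14 Car4 UMIs in assembloid and 45 in tissue cycling cells.

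**Figure D4:**
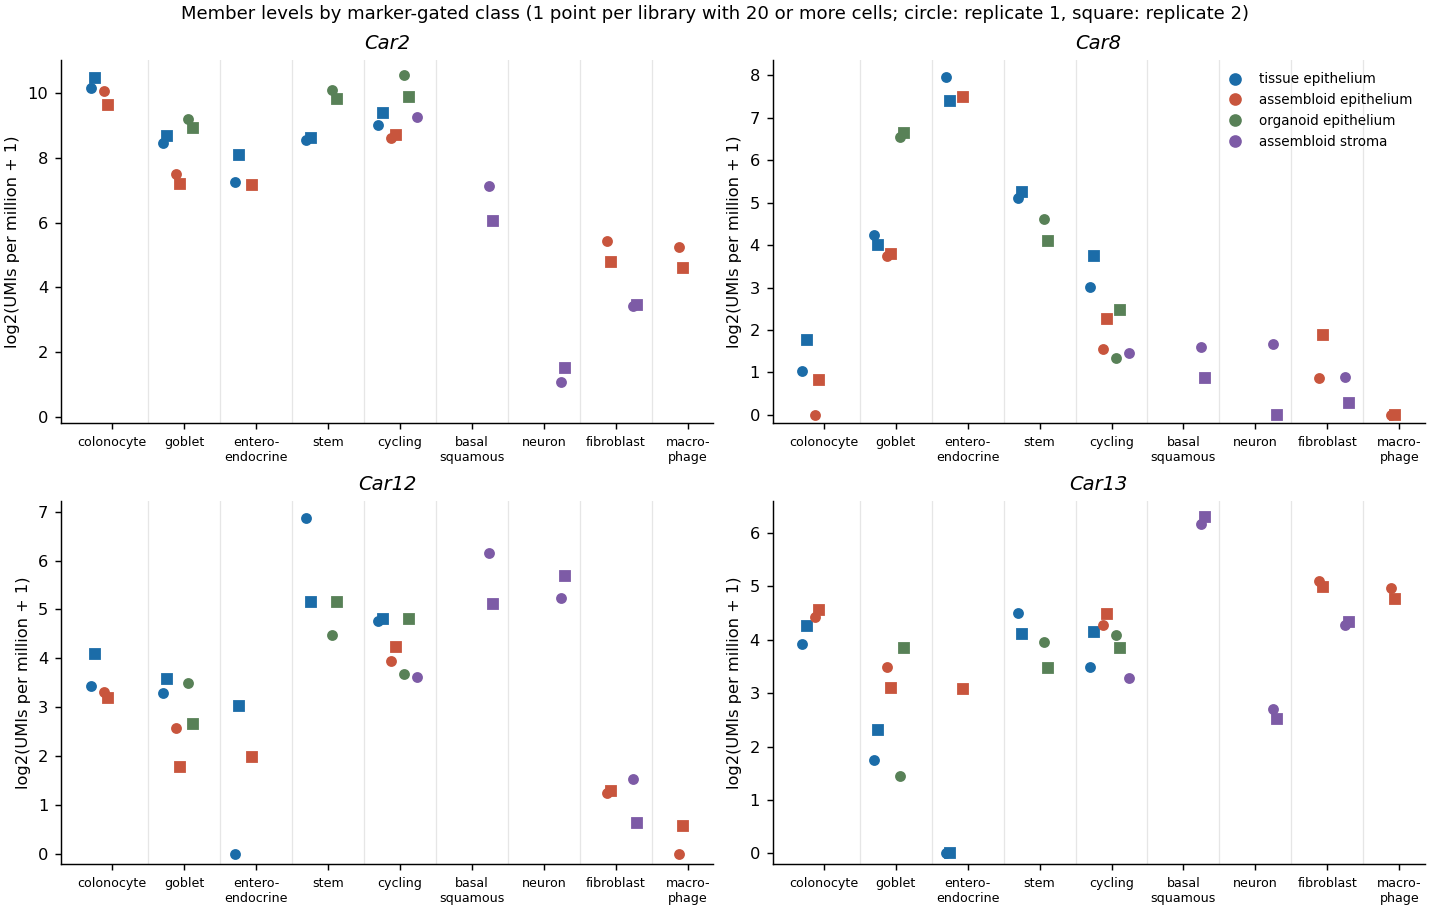
Levels of Car2, Car8, Car12 and Car13 as log2(CPM + 1) in marker-gated classes, with 1 point per library of 20 or more cells (circle: replicate 1, square: replicate 2). Car8 peaks in enteroendocrine-gated cells (167 to 248 CPM), Car12 is high in tissue stem-gated cells (117 and 34.8 CPM) and in basal squamous cells and neurons of the stroma, and Car13 peaks in basal squamous cells (71.1 and 77.3 CPM).

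Car12, the transmembrane enzyme, stood close together in the 3 epithelial groups at 12.0 and 14.4 CPM in tissue, 11.8 and 12.5 CPM in assembloids and 12.0 and 24.8 CPM in organoids, which overlapped. No epithelial contrast passed (assembloids minus tissue 0.25, SE 0.26, edgeR adjusted p = 0.444; organoids minus tissue 0.67, SE 0.26, edgeR adjusted p = 0.0596; assembloids minus organoids -0.42, SE 0.26, edgeR adjusted p = 0.192). Without organoid library 1 the organoid difference from tissue was 0.97 (adjusted p = 0.0115) and that of assembloids from organoids -0.73 (adjusted p = 0.0271). With a mitochondrial limit of 5% Car12 was above tissue in assembloids (0.79, adjusted p = 0.0290) and in organoids (1.19, adjusted p = 0.00445), and with no filter on low counts in organoids (0.73, adjusted p = 0.0170). The class pattern was wider than the group pattern. Tissue stem-gated cells held 117 and 34.8 CPM (62 and 40 cells), organoid ones 21.4 and 34.5 CPM (79 and 422 cells), and tissue colonocyte-gated cells 9.82 and 16.0 CPM. Goblet-gated Car12 was 4.99 and 2.44 CPM in assembloids and 8.86 and 11.04 CPM in tissue, a difference of -1.02 (SE 0.39, edgeR adjusted p = 0.0492) that was lost when any 1 of the 6 libraries other than assembloid library 1 was left out (from -0.41 with adjusted p = 0.430 without assembloid library 2 to -1.10 with adjusted p = 0.211 without tissue library 1). It was also lost with DESeq2 (-0.92, adjusted p = 0.181) and with the gate limit doubled (-0.57, adjusted p = 0.331).

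In the stromal libraries the Car12 level was higher in basal squamous and neuron-gated cells than in fibroblast-gated cells. Basal squamous cells held 70.6 and 33.6 CPM and neuron-gated cells 36.4 and 50.8 CPM, while fibroblast-gated cells held 1.90 and 0.556 CPM. In stromal library 1 the 812 basal squamous cells carried 74.0% of all Car12 UMIs. The sums over stromal cells leave these cells out, and stood at 2.59 and 1.37 CPM.

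Car8, the member without catalytic activity, stood at 11.7 and 13.7 CPM in tissue, 3.02 and 6.60 CPM in organoids, 2.14 and 4.89 CPM in assembloids and 1.14 and 0.256 CPM in stroma. Tissue was above both cultures, whose libraries overlapped (-0.31, SE 0.37, edgeR adjusted p = 0.505). Assembloids differed from tissue by -1.53 (SE 0.38, edgeR adjusted p = 0.00967), a call kept under all 16 alternatives, and organoids by -1.22 (SE 0.38, edgeR adjusted p = 0.0258). The organoid call was lost without organoid library 1 (-0.89, adjusted p = 0.169), tissue library 1 (-1.33, adjusted p = 0.0656) or tissue library 2 (-1.09, adjusted p = 0.118), and with a mitochondrial limit of 20% (-0.94, adjusted p = 0.0857) or every barcode (-0.83, adjusted p = 0.118).

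Among classes of 20 or more cells, Car8 was highest in enteroendocrine-gated cells, the hormone producers, which held 248 and 167 CPM in tissue (33 and 62 cells) and 179 CPM in assembloid library 2 (34 cells). Colonocyte-gated cells held at most 2.42 CPM in any library. In goblet-gated cells organoids stood far above the other groups, at 92.4 and 98.4 CPM against 12.5 and 12.8 CPM in assembloids and 17.97 and 15.1 CPM in tissue. Organoid goblet-gated cells exceeded those of tissue by 2.45 (SE 0.22, edgeR adjusted p = 9.5e-05), and those of assembloids differed from organoids by -2.32 (SE 0.24, edgeR adjusted p = 1.2e-04). Between assembloids and tissue, whose printed levels are lower in assembloids, the fit gave 0.12 (SE 0.21, edgeR adjusted p = 0.644) after TMM scaling and -0.38 (adjusted p = 0.154) with plain library sizes. The organoid values rest on 54 and 37 UMIs in 22 and 23 cells. Thinned shares of those cells with a Car8 UMI were 18.2% and 13.0%, against 3.59% and 2.95% in assembloids and 3.62% and 2.90% in tissue (unthinned 68.2% and 43.5%, 9.80% and 18.9%, and 18.4% and 14.1%). Median depth of these goblet-gated cells was 24427.5 and 15958 UMIs in organoids, 11018.5 and 20006 in assembloids and 18412 and 15328 in tissue, and fibroblast-gated cells of the assembloid epithelial libraries had a Car8 UMI in 0.400% and 1.00% after thinning. Stem-gated cells held 33.8 and 37.1 CPM in tissue and 23.5 and 16.1 CPM in organoids.

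Within goblet-gated cells, the members that could be tested passed in 5 of 6 cases for assembloids against tissue, with Car1 and Car13 higher and Car2, Car4 and Car12 lower, where 47.7% of the 12559 genes tested passed (23.6% higher, 24.1% lower). The Car12 call was lost under the alternatives given for it, and no background level was at hand for Car4 in tissue. For organoids against tissue 3 passed, Car8 higher and Car1 and Car4 lower (18.6% of all genes, 8.41% higher and 10.2% lower), and for assembloids against organoids 3, Car1 higher and Car2 and Car8 lower (22.9%, 13.6% higher and 9.29% lower). The organoid calls for Car1 and Car4 rest on 1 and 0 UMIs and were lost without organoid library 1 (adjusted p = 0.130 and 0.135), that of Car1 also without organoid library 2 (adjusted p = 0.0623). Within colonocyte-gated cells 3 of 5 passed for assembloids against tissue, Car1 and Car13 higher and Car4 lower (49.2% of 11347 genes, 25.3% higher and 23.9% lower). Car12 did not pass there (-0.00, edgeR adjusted p = 0.995), and with the gate limit doubled it passed (adjusted p = 0.0100), with no Car12 UMI in the 23 and 38 assembloid cells that reached 200 list UMIs per 10000, so no fold is given. Within cycling cells, of 7 tested, 3 passed for assembloids against tissue, Car1 and Car13 higher and Car4 lower (35.3% of 14959 genes, 19.7% higher and 15.6% lower). For organoids against tissue 2 passed there, Car2 higher and Car4 lower (30.1%, 15.9% higher and 14.2% lower), and for assembloids against organoids 3, Car1 and Car4 higher and Car2 lower (38.4%, 21.7% higher and 16.7% lower). The Car4 call in the last contrast rests on 2 organoid UMIs and was lost without assembloid library 1, organoid library 1 or organoid library 2 (adjusted p = 0.533, 0.143 and 0.0578). Each of these shares rests on few members.

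Stroma and epithelium of the assembloids were compared to place each member on 1 side of the culture. Of 8 members, 6 passed, where 72.9% of the 19655 genes tested did (34.0% higher and 38.9% lower in stroma). Car3 was on the stromal side (8.40, SE 0.83, edgeR adjusted p = 7.3e-04; 7.31 without stromal library 2 and 9.04 without stromal library 1). Car1 (-12.89, SE 0.39, edgeR adjusted p = 6.9e-05; -10.94 with the left-out cells kept) and Car2 (-5.30, SE 0.22, edgeR adjusted p = 9.7e-05; -3.93 with them kept) were on the epithelial side. Car4, with 2 UMIs in stroma, was 265 times higher in epithelium with a counting interval of 73.1 to 2197. Car12 was lower in stroma (-2.78, SE 0.35, edgeR adjusted p = 0.00150), but with the basal squamous and other left-out cells kept the value was -0.85 (adjusted p = 0.399). Car8 was lower in stroma as well (-2.47, SE 0.79, edgeR adjusted p = 0.0359), a call lost without assembloid epithelial library 1 (-2.92, adjusted p = 0.0819) or 2 (-1.87, adjusted p = 0.195), with values of -3.88 without stromal library 1 and -1.74 without stromal library 2. It was also lost with no filter on low counts (-2.45, adjusted p = 0.0566), a mitochondrial limit of 5% (-2.37, adjusted p = 0.0540) and the left-out cells kept (-2.13, adjusted p = 0.0712). Stromal and epithelial libraries also differ in the Cell Ranger version written in their headers (6.0.1 and 7.1.0), which cannot be told apart from the cell type. By default the later version also counts intronic reads, so a gene's UMIs may hold more of them in the epithelial libraries, and the settings used are not given in the sources used here.

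The 4 neighbours on chromosome 3 did not move together. Between tissue and assembloid epithelium, Car13 and Car1 were higher in assembloids, Car3 was lower and Car2 did not pass. In stroma Car3 stood above all epithelial libraries, while its neighbours Car1 and Car2, on either side of it, stood below them, and Car13 stood slightly above them. Car13 differed by at most 1.09 on the log2 scale in any contrast of whole epithelial libraries.

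**Figure D5:**
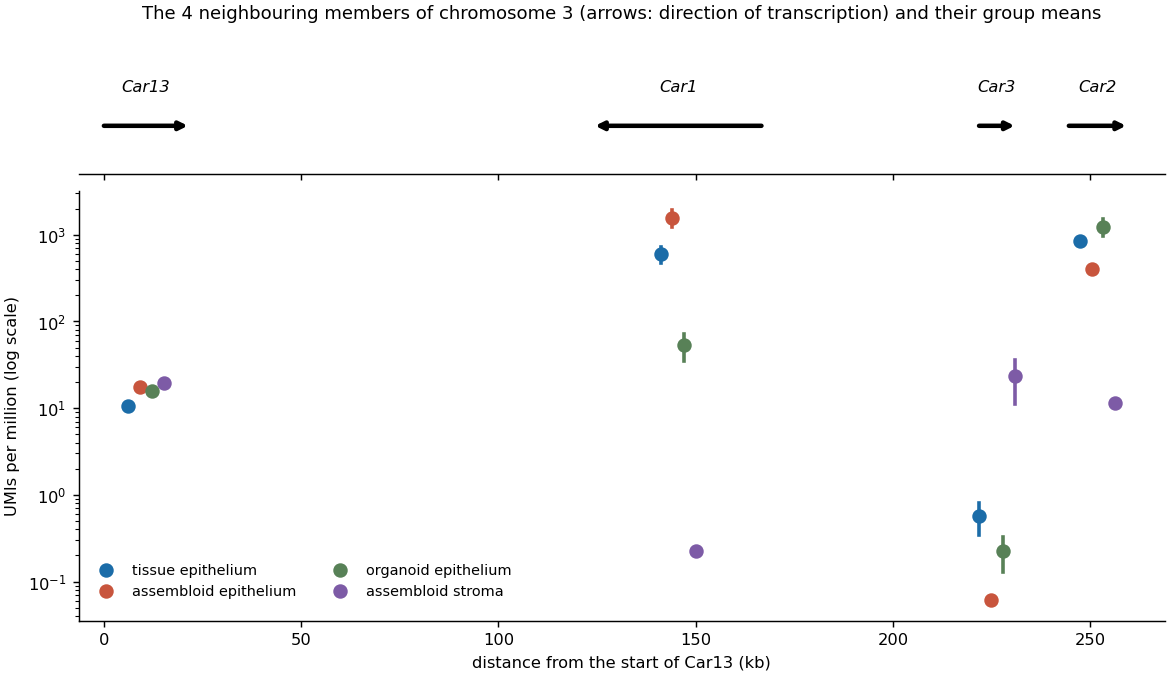
The 4 carbonic anhydrase genes of chromosome 3, as arrows along the direction of transcription against distance from the start of Car13 in kb, above their group means in CPM on a log axis (vertical lines run between the 2 libraries of a group). Car13 stays between 9.58 and 19.9 CPM in all groups, whereas Car1 runs from 0.205 CPM in stroma to 1917 CPM in assembloid epithelium.

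The genes that followed each member most closely were sought over 29 sums of epithelial library and class among 4814 genes, as a description of points that share libraries and depth. Car1 was followed by 1810065E05Rik (Pearson r = 0.95), Chmp1b (0.94) and Pmp22 (0.93). Car4 was followed by Tgm3 (0.96), Slc26a3 (0.92), the chloride and bicarbonate exchanger that is also in the colonocyte list, and Ggh (0.92). Car8 was followed by Foxa1 (0.93), Ica1 (0.91) and Hoxb9 (0.89), and Car12 by Mgam (0.88), Rbbp8 (0.87) and Tinag (0.85). Car13 was followed by Anxa1 (0.85), Ahnak (0.84) and Mpzl2 (0.83), and Car2 by Fbp2, Immt and Dhrs7b (each 0.81). Between members, the values of Car8 ran against those of Car13 (-0.70) and Car1 (-0.66).

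The other carbonic anhydrases of the list were measured beside the members. Of 8, 7 were tested, and 4 passed for assembloids against tissue (3 higher, 1 lower), beside 50.5% of all genes (27.2% higher, 23.3% lower), a similar share. For organoids against tissue 4 passed (2 higher, 2 lower), beside 47.6% of all genes, and for assembloids against organoids 5 passed (all 5 higher), beside 54.4% of all genes (29.5% higher). Car9, a membrane enzyme induced by low oxygen, was at 21.6 and 21.7 CPM in tissue, 47.2 and 67.1 CPM in organoids and 105 and 139 CPM in assembloids, groups that did not overlap. It exceeded tissue by 2.85 (SE 0.21, edgeR adjusted p = 2.7e-05) in assembloids and by 1.62 (SE 0.20, edgeR adjusted p = 3.0e-04) in organoids. The mitochondrial enzymes Car5b and Car5a were also higher in assembloids than in tissue (2.23 with adjusted p = 8.98e-04 and 5.56 with adjusted p = 1.4e-04), Car15 was lower (-2.43, adjusted p = 0.00756), and Car10, Car11 and Car14 did not pass there (-0.19, -0.15 and 1.08). The Car5a value rests on a tissue level near the limit of detection, 0.0426 and 0.0541 CPM against 2.03 and 1.52 CPM in assembloids.

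A list of carriers of bicarbonate, protons, chloride or lactate, the partners of these enzymes, was counted next. It also held the channels Cftr and Best2, the pump Atp12a and Slc9a3r1, a scaffold protein that moves no ion. Of 19 tested, 14 passed for assembloids against tissue (2 higher, 12 lower), where 50.5% of all genes did (27.2% higher, 23.3% lower). For organoids against tissue 12 passed (1 higher, 11 lower), beside 47.6% (24.5% higher, 23.1% lower), and for assembloids against organoids 11 (8 higher, 3 lower), beside 54.4%. The median log2 difference of the list from tissue was -1.13 in assembloids and -1.29 in organoids, beside 0.03 and 0.06 over all genes. Slc26a3, which exchanges chloride for bicarbonate at the apical membrane, stood at 180 and 198 CPM in tissue, 13.3 and 19.1 CPM in assembloids and 0.885 and 0.914 CPM in organoids, the same order as Car4. Cftr, the chloride channel of crypt cells, fell from 185 and 187 CPM in tissue to 14.52 and 20.9 CPM in assembloids (-3.04, SE 0.23, edgeR adjusted p = 3.0e-05). The sulfate carrier Slc26a2, the sodium bicarbonate cotransporter Slc4a4 and the monocarboxylate carrier Slc16a1 were lower in assembloids than in tissue as well (-2.64, -1.61 and -1.03). Slc16a3, a lactate exporter, was higher, from 0.617 and 0.460 CPM in tissue to 67.9 and 75.8 CPM in assembloids (7.41, SE 0.33, edgeR adjusted p = 8.0e-06).

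Values that moved with some of these results were measured beside them. Erythroid genes, whose cells are rich in Car1 and Car2, summed to 91.0 CPM in tissue library 2 and to at most 1.38 CPM in the other 7 libraries, with 2 cells of that tissue library holding 3 or more of the 6 genes. The fibroblast list summed to 229 and 58.7 CPM in the assembloid epithelial sums and to at most 0.0541 CPM in those of tissue and organoids. The share of barcodes that passed the cell limits was lowest in tissue (38.7% and 25.4%). The part of these values in the members' differences was not tested.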

How the data were processed

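Single cells of mouse colon had been captured on the 10x Chromium platform with 3' chemistry. The deposited matrices hold UMI counts per gene and barcode, made by the authors with Cell Ranger against mm10 per the submitters' processing notes, and their headers name version 6.0.1 for the stromal and 7.1.0 for the epithelial libraries. Each sample's group was taken from its label. All columns of per-sample values were used. Members and gene lists were chosen with earlier results of these data known.

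Barcodes with 500 genes or more and mitochondrial UMIs of 10% or less were kept, the limits the study states for its stromal cells. Tissue and organoid libraries then held fewer cells than the study counted after filtering, and those of the assembloids more. Assembloid epithelial library 1 alone, with 29410 passing cells, exceeded the study's count for both such libraries. The cells summed here are therefore not the study's set. Classes were set by UMIs of fixed marker lists per 10000 (colonocyte 100, goblet 200, enteroendocrine 50, cycling 20, stem 15, fibroblast 40, neuron 15, macrophage 60, basal squamous 30), with 3 list genes or more and, for epithelial subclasses, 4000 UMIs or more. The limits were chosen after the data had been seen. No doublet caller was run. Cells passing gates of several lineages were set aside, and removing the top 5% of cells by UMIs was an alternative.

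Sums of the counts over all cells used, or over a class of 20 cells or more, were made for each library and tested with edgeR 4.0.16 (quasi-likelihood, filterByExpr, TMM, Benjamini-Hochberg over all genes tested, threshold 0.05) in R 4.3.3, with the 6 epithelial libraries in 1 fit and the stromal comparison in a fit of the 4 assembloid libraries. The standard error is the log2 fold change divided by the square root of F. The test was checked on simulated data. Alternatives were DESeq2 1.42.0, plain library sizes, no filter on low counts, a replicate block, each library left out, mitochondrial limits of 5% and 20%, 1000 genes per cell, every barcode, cells of other classes kept and doubled gate limits, and, added after the data had been seen, plain library sizes within classes. For shares, cells were thinned to 2000 UMIs. Ratios against a group with 3 or fewer UMIs carry exact 95% intervals, and these and the limits for a count of 0 cover counting error only.

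Described by name were all 8 members in the comparisons of whole libraries and part of them within classes. Also named were at most 6 genes of each list that passed with a log2 fold change of 1 or more, by mean CPM. For members at 10 CPM or more the 3 genes with the highest Pearson r were named. Levels are not compared between genes.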

Additional observations from a re-analysis of the deposited data

Results flagged for a closer look

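The Car8 values of organoid epithelium lay on opposite sides of those of tissue in 2 classes, and only the goblet difference passed the test. In goblet-gated cells both organoid libraries stood above both tissue libraries (log2 difference 2.45), and in cycling cells both stood below them (1.52 and 4.58 CPM in organoids, 7.13 and 12.3 CPM in tissue, -1.28, edgeR adjusted p = 0.119). The cycling-cell difference passed with a mitochondrial limit of 20% (-1.81, adjusted p = 0.0151), without assembloid library 1 (-1.24, adjusted p = 0.0327), without assembloid library 2 (-1.24, adjusted p = 0.0378) and with the replicate block (-1.43, adjusted p = 0.0432), and was -0.76 without organoid library 1 (adjusted p = 0.506). Organoid goblet-gated cells lay nearer the gate limit than those of tissue, by the median list levels given above. The difference between the classes was not tested.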

How the results depend on the processing

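The count of members that passed moved by over 1.5 times in these cases. For organoids against tissue it was 2 with a mitochondrial limit of 20% and 2 with every deposited barcode, in place of 4. Of all genes, 44.5% and 44.7% passed there, in place of 47.6%. For assembloids against organoids it was 5 with no filter on low counts, 5 with a mitochondrial limit of 5% and 5 with cells of other classes kept, in place of 3. Of all genes, 44.0%, 58.1% and 57.5% passed in these 3 settings, in place of 54.4%. For assembloids against tissue within cycling cells it was 5 members with a mitochondrial limit of 20%, in place of 3. Of all genes, 45.1% passed there, in place of 35.3%. Leaving out 1 library at a time gave 3 to 6 members for assembloids against tissue, 2 to 5 for organoids against tissue, 3 to 4 for assembloids against organoids and 5 to 6 for stroma against epithelium. The same gave 2 to 5, 1 to 3 and 2 to 3 in goblet-gated cells and 2 to 4, 1 to 3 and 2 to 4 in cycling cells, in the same order of contrasts, and 3 each time in colonocyte-gated cells. With 1 library left in a group, that library is assumed to vary like the others. Causes were not tested.

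With the replicate number as a block, 5, 4, 3 and 6 members passed in the 4 comparisons of whole libraries, 3 in colonocyte-gated cells, 5, 3 and 3 in goblet-gated cells and 3, 3 and 3 in cycling cells. The gain was Car8 in cycling cells of organoids against tissue (-1.43, edgeR adjusted p = 0.0432). Deviations of same-numbered libraries correlated at -0.015 to 0.054 over genes. Each group gives only the difference between its own libraries, so this cannot show whether same-numbered libraries share an animal or a run.

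The fold changes that turned sign belonged to members that had not passed the test. Among processing choices the largest turn was Car4 in goblet-gated cells of assembloids against organoids, with 1 and 0 UMIs, at 2.68 and at -1.50 with DESeq2. Within classes, plain library sizes, tried after the data had been seen, gave -0.45 for Car2 in colonocyte-gated cells and -0.38 for Car8 in goblet-gated cells (assembloids against tissue) and -0.082 for Car8 in cycling cells (assembloids against organoids). In whole libraries Car12 was -0.12 for assembloids against tissue and Car7 -0.14 for organoids against tissue with them. With a mitochondrial limit of 20% or with every barcode Car12 was -0.23 and -0.24 and Car7 -0.53 and -0.50 in these contrasts, and Car7 was -0.51 with a limit of 5% and -0.023 without the top 5% of cells. For stroma against epithelium Car7 was -0.0069 with DESeq2, -0.034 with 1000 genes per cell and -0.13 with other classes kept, and Car13 was -0.036 with DESeq2. DESeq2 gave 0.034 for Car12 in colonocyte-gated cells and 0.017 for Car2 in cycling cells (assembloids against tissue), where a limit of 20% gave 0.10. Car8 in cycling cells (assembloids against organoids) was -0.039 with no filter and -0.080 with a limit of 20%.

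With 1 library left out at a time, members tested with all libraries crossed 0 as follows. Car7 ranged from -0.14 to 0.28 for organoids against tissue and from -0.64 to 1.36 for stroma against epithelium, and Car13 from -0.00060 to 0.061 in the latter. For assembloids against organoids Car8 ranged from -0.89 to 0.13 and Car13 from -0.024 to 0.55. In colonocyte-gated cells Car2 ranged from -0.19 to 0.42 and Car12 from -0.31 to 0.36. In goblet-gated cells Car8 ranged from -0.00053 to 0.26 (assembloids against tissue), Car13 from -0.95 to 1.95 (organoids against tissue) and Car12 from -1.19 to 0.0013 (assembloids against organoids). In cycling cells Car2 ranged from -0.15 to 0.17 (assembloids against tissue), Car1 from -0.45 to 1.45 and Car12 from -0.58 to 0.30 (organoids against tissue), and Car8 from -0.49 to 0.84 and Car12 from -0.54 to 0.40 (assembloids against organoids). The widest ranges there were those of Car7, with few UMIs, from -1.42 to 7.20 for assembloids and from -2.10 to 4.94 for organoids against tissue.

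Of the fold changes recomputed, 812 kept direction and side of the threshold, 44 fell short of it, 36 came to pass it and 41 turned sign, without Car7 within classes and Car4 in goblet-gated cells against organoids, which had too few UMIs. Plain library sizes moved the median of all genes to -0.33 for assembloids against tissue, and the higher share of called genes from 53.8% to 39.2%; for organoids against tissue it went from 51.5% to 41.2%. Within classes it went from 49.5% to 22.1%, 45.2% to 52.7% and 59.4% to 20.4% in goblet-gated cells and from 55.8% to 31.4%, 52.9% to 27.9% and 56.6% to 52.7% in cycling cells, in the same order of contrasts. Over all genes, 9773 passed for assembloids against tissue, and 5687 or 6015 without tissue library 1 or 2. For organoids against tissue 9225 passed, and 5503 or 5680 without these. In goblet-gated cells the same 2 left out took 5986 to 2573 or 2922 for assembloids against tissue and 2336 to 781 or 972 for organoids against tissue, with 460 or 1526 without organoid library 1 or 2. Assembloids against organoids went from 2875 to 1128 or 1796 without organoid library 1 or 2. In cycling cells 5286 fell to 1451 or 2680 without tissue library 1 or 2, 4503 to 1090 or 1791 without these and to 2182 without organoid library 1, and 5747 to 3139 without organoid library 1 and to 1820 with the gate limit doubled. In colonocyte-gated cells 5585 became 2358 with it doubled. Doubled gate limits were not run for tissue cycling and organoid goblet-gated cells, with too few cells left. Car7, epithelial Car3 and organoid Car4 rest on few UMIs.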
